A study of Mus musculus with 24 samples.

Results

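Regulators of G protein signalling (RGS proteins) were followed in the hippocampus of mice that lack Egr1 in neural lineage cells. The 10 members of the set were taken by symbol from a table of 36605 genes. They are Rgs7, Rgs11 and Gnb5 of the R7 complex, Rgs2, Rgs4, Rgs8 and Rgs16 of the R4 subfamily, Rgs10 and Rgs14 of the R12 subfamily, and Rgs20 of the RZ subfamily. Rgs11 was selected on its measured level, which was lower in the mice without Egr1, so its values in every comparison with those mice are a description and carry no test. The other 9 members were tested, and Rgs11 was tested only between mice with intact Egr1 and between the sexes.

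The study sequenced polyadenylated hippocampal RNA as bulk libraries from 24 adult mice, with 3 females and 3 males in each of 4 genotypes. Mice labelled Egr1wtNesCre- (wtNeg) carried neither floxed Egr1 nor Cre and served as the complete wild type. Mice labelled Egr1fNesCre- (ffNeg) carried the floxed Egr1 alleles without Cre. Mice labelled Egr1wtNesCre+ (wtPos) carried the Nestin-Cre transgene with wild type Egr1. Mice labelled Egr1fNesCre+ (ffPos, the Egr1cKO mice) carried both. Nestin-Cre is active in neural precursors, so cells of other origin in the tissue keep Egr1. The floxed line and the wild type line have mouse numbers in separate ranges, so the floxed alleles and the mouse series cannot be told apart.

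Libraries held between 18025168 and 34955004 counts, with a median of 22743950.5. Levels are given as CPM, the counts of a gene over the size of its library, scaled by edgeR's TMM factors, and differences as log2 fold changes with the standard error (SE) or the 95% confidence interval. Egr1 lay between 4.86 and 10.2 CPM in the 6 ffPos mice and between 47.7 and 149 CPM in the 18 others, and it fell by 3.59 on the log2 scale in ffPos mice (SE 0.23, edgeR adjusted p = 1.19e-11). The labels call the cells endocrine, but the 5 neuronal markers summed to between 4691 and 5535 CPM, while the 5 pituitary markers in the table summed to between 0.899 and 3.84 CPM, with the hormone subunit gene Cga at 0 in 23 mice. Choroid plexus markers summed to 1994 CPM in one wtPos female (replicate 1) and to 1101, 1011 and 789 CPM in ffPos male 2, ffNeg male 3 and ffNeg male 2, beside a median of 49.7 CPM. The wtPos female also had the highest activity list, and results that rest on that female are given with and without it. P-values measure the spread between mice. In bulk tissue, fewer cells of a type and less RNA per cell cannot be told apart.

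RGS proteins speed the hydrolysis of GTP by G alpha subunits, and so shorten the signal of receptors for dopamine, glutamate, acetylcholine and other transmitters. The R7 proteins are unusual in that they are stable only when bound to Gnb5, the type 5 G beta subunit, and membrane anchors such as Rgs7bp and the receptor Gpr158 bring the complex to its target. Rgs2 and Rgs4 are small proteins of the R4 subfamily, and Rgs2 in particular is known as a gene induced by neuronal activity. Egr1 is itself an activity-induced zinc finger transcription factor that binds GC-rich sites.

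Upstream sequence is shown because the studied factor binds DNA. It is given for Rgs2, for Rgs4 and for Rgs16, the member with the highest difference in ffPos mice. The sequences are from RefSeq on GRCm38.p6, each giving the 200 bases from 250 to 51 before the annotated start, 5′ to 3′ on the gene's strand. Capitals mark the Egr1 motif, searched as GCGNGGGCG on both strands in windows that reach 50 bases past the start.
Rgs2, chr1:144004200-144004399, minus strand: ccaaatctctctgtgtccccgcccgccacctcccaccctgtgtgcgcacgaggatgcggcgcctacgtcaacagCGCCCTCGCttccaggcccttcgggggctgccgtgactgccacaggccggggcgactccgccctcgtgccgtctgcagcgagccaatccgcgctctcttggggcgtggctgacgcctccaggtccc
Rgs4, chr1:169747693-169747892, minus strand: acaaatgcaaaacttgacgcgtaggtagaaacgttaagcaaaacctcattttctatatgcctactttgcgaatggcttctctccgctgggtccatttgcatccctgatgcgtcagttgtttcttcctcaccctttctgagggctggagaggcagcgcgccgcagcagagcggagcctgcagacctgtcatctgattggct
Rgs16, chr1:153740103-153740302, plus strand: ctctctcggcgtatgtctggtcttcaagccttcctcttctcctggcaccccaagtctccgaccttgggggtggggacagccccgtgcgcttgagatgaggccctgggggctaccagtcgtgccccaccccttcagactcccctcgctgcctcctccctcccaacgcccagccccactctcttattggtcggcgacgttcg
The motif was found in 1824 of 32851 promoter windows (5.55%). Of the 7 members with a window in the table, it was in 1, Rgs2, in the reverse form, starting 176 bases before the start. Windows for Rgs11, Rgs14 and Rgs20 were not in the table. A match of these letters is a description and not a binding site, and Rgs2 did not pass the test in any comparison of the Egr1cKO mice.

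Rgs11 (ENSMUSG00000024186, chr17:26202951-26211324 on the plus strand of GRCm38) encodes an R7 protein that works as a dimer with Gnb5. Its level in ffPos females was 31.6, 30.4 and 29.7 CPM, and in ffPos males 30.2, 39.7 and 39.8 CPM. In wtNeg mice the lowest, median and highest values were 35.6, 43.4 and 52.7 CPM. The 3 females and 1 of the males, male 1, lay below every one of the 18 other mice, while the other 2 males overlapped with them. Of these, ffPos male 2 (Rgs11 at 39.7 CPM) had the second highest choroid plexus signal. In ffPos male 3 (Rgs11 at 39.8 CPM) the choroid plexus signal was below that of ffPos male 1, whose markers summed to 75.0 CPM. The part of that signal in the Rgs11 values was not tested. The ffNeg mice gave 34.3, 43.8 and 51.1 CPM as lowest, median and highest, and the wtPos mice 40.1, 44.7 and 55.0 CPM. All 6 ffPos mice were below the median of the other 18, 44.3 CPM, and 2 of those 18 were below the highest ffPos mouse.

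**Figure D1:**
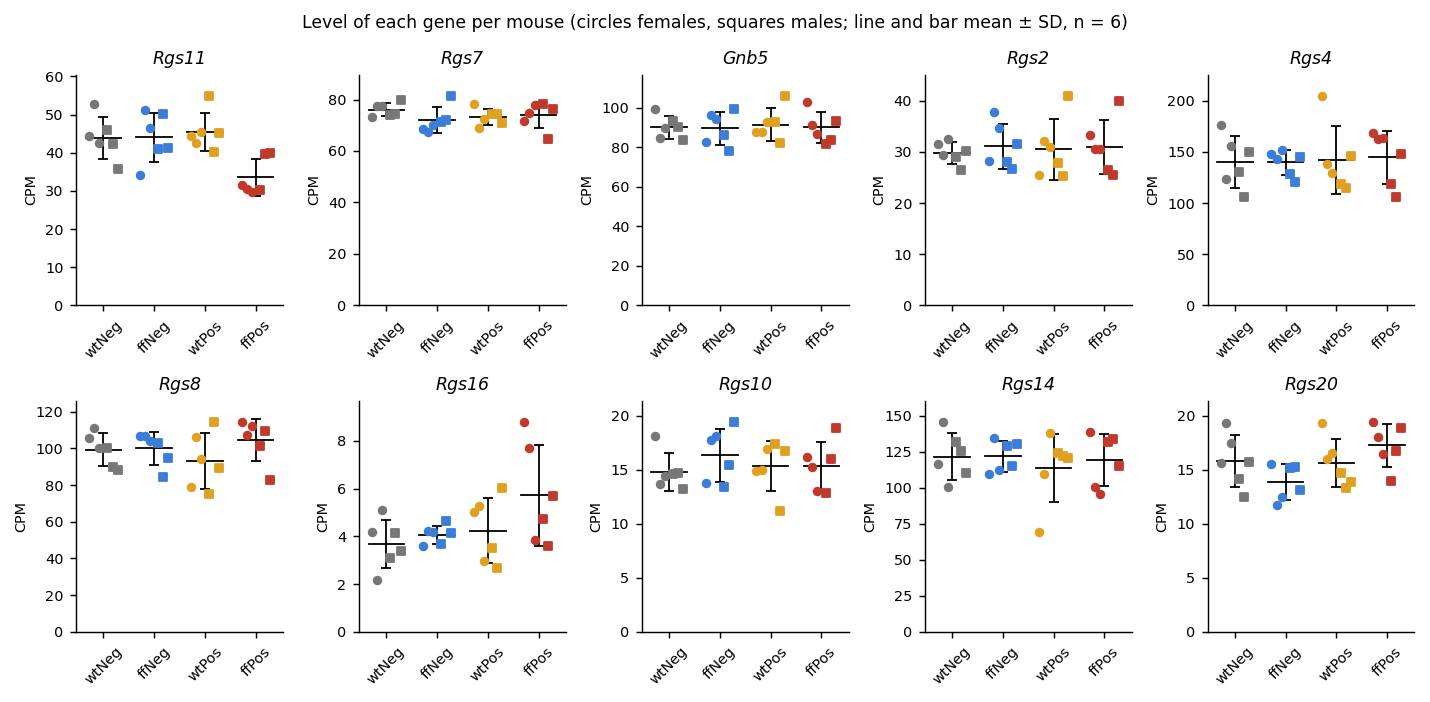
Level of each of the 10 members in CPM in each mouse, by genotype, with circles for females, squares for males, and a line and bar for the mean ± SD (n = 6). For Rgs11, 4 of 6 ffPos mice lie below all 18 others; for the other members the ffPos points lie among those of the other genotypes except for 1 mouse each of Rgs7 and Rgs20 and 2 mice of Rgs16.

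As fitted by edgeR, the Rgs11 level in ffPos mice was 0.759 of that in all other mice, a log2 difference of -0.40 (SE 0.08). It was -0.39 (SE 0.10) against ffNeg mice and -0.44 (SE 0.09) against wtPos mice. These comparisons share the same 6 ffPos mice, so they are not separate evidence. Among females alone the difference from all other mice was -0.55 (SE 0.10), and among males alone -0.26 (SE 0.12). Over all alternative settings of the pooled comparison the difference lay between -0.55 and -0.26. For ffPos against ffNeg mice, females differed from males by -0.26 (SE 0.20) as a description. The interval of that sex difference ran from -0.69 to 0.17, also as a description and not as a test.

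Rgs11 was chosen by setting ffPos mice against the pooled 18 mice with intact Egr1. Comparisons within those 18 hold no ffPos mouse, but they are not independent of that choice. Between ffNeg and wtNeg mice, Rgs11 differed by 0.00 on the log2 scale (SE 0.10, edgeR adjusted p = 0.995), with an interval from -0.21 to 0.21. Between wtPos and wtNeg mice it differed by 0.05 (SE 0.09, edgeR adjusted p = 0.916), with an interval from -0.15 to 0.25. Neither floxed alleles nor Nestin-Cre alone gave a difference that passed the test. The interaction of floxed alleles and Nestin-Cre, in which the Egr1cKO mice enter, was -0.43 (SE 0.15) for Rgs11 as a description.

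Close neighbours flank Rgs11, and the libraries did not keep strand. Arhgdig, on the opposite strand, shares 138 exonic bases with Rgs11, or 3.28% of its exonic length, and reads there cannot be told apart. Arhgdig differed by -0.04 in ffPos mice from all others (edgeR adjusted p = 0.835). Fam234a, 498 bases to the right, differed by -0.19 (edgeR adjusted p = 0.298), and all 6 ffPos mice were below the median of the others. Pdia2, 3864 bases to the left, did not exceed 0.864 CPM in any mouse. Neither Arhgdig nor Fam234a passed the test. Gm28513 shares 236 exonic bases with Rgs16 (10.1%) and Gm19531 shares 248 with Gnb5 (7.96%), so the same limit holds there. It holds also for Rgs20, which shares 127 exonic bases (3.0%) with Atp6v1h on the opposite strand. Atp6v1h stood at higher levels than Rgs20, between 128 and 163 CPM.

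Markers of other cell types also stood at other levels in ffPos mice, and their part in the Rgs11 values was not tested. The myelin genes Mbp and Mog summed to between 1619 and 2295 CPM in ffPos mice and to between 1914 and 3082 CPM in the others. Like Rgs11 they had lower values in ffPos mice against all others, with Mbp at -0.29 (edgeR adjusted p = 0.223) and Mog at -0.24 (edgeR adjusted p = 0.249), and also against ffNeg and wtPos mice alone. The 4 microglial markers summed to between 201 and 233 CPM in ffPos mice and to between 146 and 213 CPM in the others. Of the 4, 3 had higher values in ffPos mice and none passed the test (lowest edgeR adjusted p = 0.201). The 3 vessel markers, Rgs5 among them, summed to between 124 and 151 CPM in ffPos mice and between 94.7 and 155 CPM in the others, with all 3 higher (Rgs5 0.23, edgeR adjusted p = 0.208). All these ranges overlap. So do those of the CA1 markers (457 to 710 CPM in ffPos mice, 436 to 596 CPM in the others), the dentate gyrus markers (239 to 432 CPM and 214 to 431 CPM) and the striatum markers (21.8 to 69.3 CPM and 19.0 to 48.2 CPM).

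Rgs7 (chr1:175059087-175492500, minus strand), the other R7 member of the set, was the steadiest member, with a coefficient of variation of 5.62% over the 24 mice. Its lowest, median and highest values were 64.8, 75.5 and 78.3 CPM in ffPos mice. In ffNeg mice they were 67.5, 70.8 and 81.5 CPM. The genotypes overlapped throughout, with wtNeg mice between 73.2 and 79.6 CPM and wtPos mice between 68.9 and 78.1 CPM. Rgs7 differed by 0.01 on the log2 scale between ffPos and all other mice (SE 0.04, interval -0.08 to 0.10, edgeR adjusted p = 0.923), and by 0.05 from ffNeg mice (SE 0.07, edgeR adjusted p = 0.761).

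Gnb5 (chr9:75306288-75345876, plus strand), the partner that Rgs7 and Rgs11 both need, had overlapping values in all 4 genotypes. Its lowest, median and highest values were 81.8, 89.1 and 103 CPM in ffPos mice and 83.5, 90.2 and 99.5 CPM in wtNeg mice. They were 78.2, 90.3 and 99.4 CPM in ffNeg mice and 82.2, 90.3 and 106 CPM in wtPos mice. The 4 medians lay between 89.1 and 90.3 CPM. Gnb5 differed by 0.00 in ffPos mice from all others (SE 0.05, interval -0.11 to 0.11, edgeR adjusted p = 0.998), by 0.01 from ffNeg mice (interval -0.14 to 0.16, edgeR adjusted p = 0.962) and by -0.02 from wtPos mice (edgeR adjusted p = 0.923). These intervals limit a shift of Gnb5 to less than the difference seen in Rgs11.

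**Figure D2:**
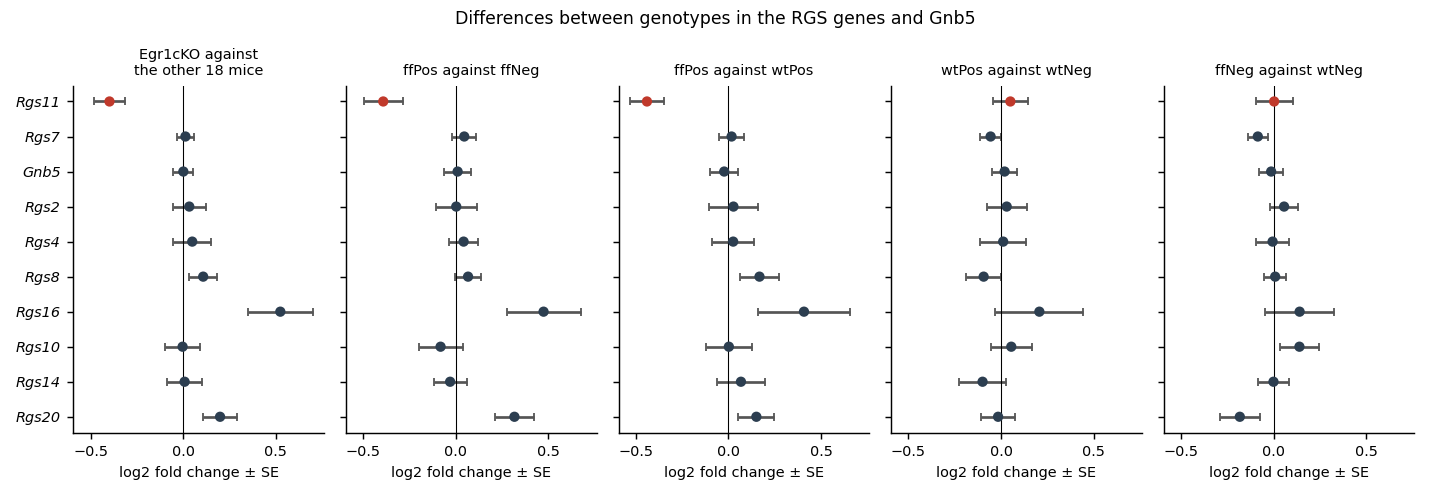
Log2 fold change of each member in the comparisons of the design, with bars of 1 standard error. Rgs11 is at -0.40 in ffPos against all other mice and Gnb5 at 0.00, and Rgs16 is the highest at 0.52.

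Rgs2 (chr1:143999338-144004161, minus strand), an RGS protein that acts mainly on Gq, spread over similar ranges in the genotypes. Its lowest, median and highest values were 25.4, 30.5 and 40.0 CPM in ffPos mice, and 26.6, 29.8 and 37.8 CPM in ffNeg mice. In wtNeg mice they were 26.5, 29.7 and 32.5 CPM, and in wtPos mice 25.4, 29.4 and 41.0 CPM. All 4 genotypes overlapped. Rgs2 differed by 0.03 on the log2 scale between ffPos and all other mice (SE 0.09, interval -0.15 to 0.22, edgeR adjusted p = 0.887), and by 0.00 from ffNeg mice (edgeR adjusted p = 0.995).

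Rgs4 (chr1:169741477-169747642, minus strand), which acts on Gi and Gq and is abundant in forebrain neurons, spread widely among mice within each genotype. Its lowest, median and highest values were 106, 155 and 168 CPM in ffPos mice, and 121, 144 and 152 CPM in ffNeg mice. In wtNeg mice they were 106, 140 and 176 CPM, and in wtPos mice 115, 133 and 205 CPM. The highest of all was the wtPos female with the most choroid plexus marker signal. Rgs4 differed by 0.05 between ffPos and all other mice (SE 0.10, interval -0.16 to 0.26, edgeR adjusted p = 0.847), and by 0.04 from ffNeg mice (edgeR adjusted p = 0.823).

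Of all comparisons, the one between the sexes gave the largest difference of Rgs4. Females had a mean of 155 CPM ± 22.3 (SD, n = 12) and males 128 CPM ± 16.03 (SD, n = 12), with females between 123 and 205 CPM and males between 106 and 149 CPM. The female mean was above the male mean in each genotype, by 152 against 129 CPM in wtNeg, 148 against 131 in ffNeg, 157 against 126 in wtPos and 165 against 124 in ffPos mice. In ffPos mice the 3 females (163 to 168 CPM) lay above the 3 males (106 to 148 CPM). The difference was 0.28 on the log2 scale (SE 0.08, interval 0.13 to 0.44) and did not pass (edgeR adjusted p = 0.437 over 18766 genes). With no filter on low counts it passed (edgeR adjusted p = 0.000295), and by DESeq2 it did not (adjusted p = 0.145). Without the wtPos female it was 0.23. No member of 10 passed between the sexes, where 0.0746% of all genes did, and 3 members had an unadjusted p under 0.05, beside 5.92% of all genes (DESeq2 called 0). Those were Rgs4, Rgs8 (0.14, edgeR adjusted p = 0.808) and Rgs20 (0.15, edgeR adjusted p = 0.837), all higher in females. Rgs11 differed by -0.04 between the sexes (SE 0.07, edgeR adjusted p = 0.974).

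Activity itself was read from 9 immediate early genes (Fos, Fosb, Junb, Arc, Npas4, Nr4a1, Dusp1, Btg2 and Ier2), with Egr1 left out. None of the 9 passed the test in ffPos mice against all others, where their median difference was -0.12 beside -0.01 for all genes. The sign depended on the comparison. Against ffNeg mice their median was 0.03, with 5 higher and 4 lower, and against wtPos mice -0.13, with 4 higher and 5 lower. Summed, they ranged from 226 to 531 CPM in ffPos mice and from 193 to 708 CPM in the others. The 18 mice with intact Egr1 were used to relate each member to the mean log2 CPM of this list, in 16 relations adjusted together by Benjamini-Hochberg. Rgs4 was higher in mice with a higher list, at Pearson's r = 0.63 (permutation p = 0.00463, adjusted 0.0741) and Spearman's rho = 0.53 (permutation p = 0.0259, adjusted 0.138). Without the 2 mice farthest from the median of the list r was 0.42, and without the wtPos female it was 0.51 (adjusted 0.191), and over all 24 mice, with the ffPos mice included, 0.61 (adjusted 0.0270). The relation did not pass over the 18 mice and was weaker without the few at the ends. Within the 12 mice of wild type Egr1 alleles r was 0.69, and within the 6 ffNeg mice 0.20. Rgs7 gave r = 0.52 (permutation p = 0.0267, adjusted 0.142), rho = 0.57 (adjusted 0.138) and r = 0.60 without the 2 farthest mice, and the r of the 7 members other than Rgs2, Rgs4 and Rgs7 ran from -0.38 for Rgs8 to 0.42 for Rgs20, none passing.

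For Rgs2 the relation to the same list gave smaller values. Its r was 0.14 (permutation p = 0.576, adjusted 0.741) and its rho 0.12, with r of 0.17 without the 2 farthest mice, 0.14 within the 12 mice of wild type alleles, 0.19 within the 6 ffNeg mice and 0.25 over all 24 mice. Without the wtPos female it was 0.33 (adjusted 0.437), beside the 0.51 of Rgs4. The difference between the relations of Rgs2 and Rgs4 was not tested. Rgs2 and Rgs4 were related at r = 0.27 (adjusted 0.488) and rho = 0.51 (adjusted 0.138). Without the wtPos female r was 0.63 (adjusted 0.106) and rho 0.75 (adjusted 0.0106). That female had the highest Rgs4 and activity list of all mice and one of the lowest Rgs2 levels, 25.5 CPM.

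**Figure D3:**
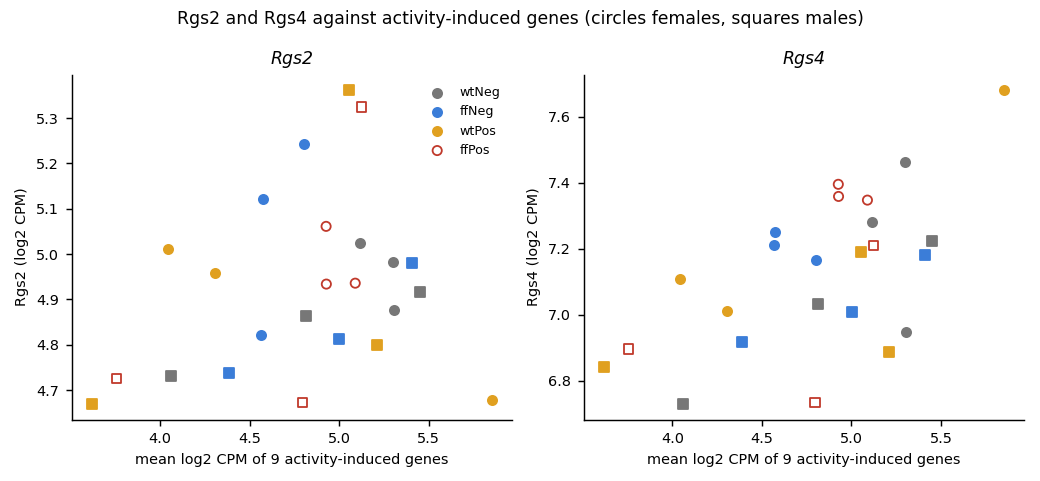
Rgs2 and Rgs4 levels in each mouse on a log2 CPM scale against the mean log2 CPM of 9 immediate early genes, with genotypes marked. Rgs4 lies higher in mice with a higher list mean (r = 0.63 over the 18 mice with intact Egr1) and the same measure is smaller for Rgs2 (r = 0.14).

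Rgs8 (chr1:153653025-153700323, plus strand), another R4 member, had a lowest, median and highest value of 82.8, 108 and 114 CPM in ffPos mice. In wtNeg mice these were 88.4, 100 and 111 CPM, in ffNeg mice 84.4, 104 and 107 CPM, and in wtPos mice 75.0, 91.8 and 115 CPM. The genotypes overlapped, and 5 of the 6 ffPos mice were above the median of the other 18. The difference from all other mice was 0.11 (SE 0.07, interval -0.04 to 0.26, edgeR adjusted p = 0.499).

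Rgs16 (chr1:153740349-153745468, plus strand), on the same chromosome as Rgs8, had the largest positive difference of the members in ffPos mice. It is a low-level gene, at 8.80, 7.71 and 3.86 CPM in ffPos females and 4.71, 3.60 and 5.67 CPM in ffPos males. The other 18 mice ranged from 2.16 to 6.01 CPM, so 2 of the 6 ffPos mice, both female, were above all others. Rgs16 differed by 0.52 from all other mice (SE 0.17, interval 0.17 to 0.88, unadjusted p = 0.00549) and did not pass (edgeR adjusted p = 0.215). It differed by 0.47 from ffNeg mice (edgeR adjusted p = 0.281) and by 0.41 from wtPos mice (edgeR adjusted p = 0.506). Females alone gave 0.74 and males alone 0.26 against all other mice, and the test of the difference between the sexes, for ffPos against ffNeg mice, was 0.59 (edgeR adjusted p = 0.999). Rgs16 is also known as a thalamus gene, and the other 3 thalamus markers summed to between 29.6 and 45.7 CPM in ffPos mice and between 29.9 and 47.8 CPM in the others.

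The R12 member Rgs10 (chr7:128373621-128418758, minus strand), which in brain is known from microglia, had a lowest, median and highest value of 12.8, 15.6 and 18.8 CPM in ffPos mice, within the 11.2 to 19.4 CPM of the others. The medians of wtNeg, ffNeg and wtPos mice were 14.5, 16.6 and 15.9 CPM, and all genotypes overlapped. It differed by -0.0038 from all other mice (interval -0.19 to 0.19, edgeR adjusted p = 0.987). In the 18 mice with intact Egr1 its level ran against the microglial markers, with r = -0.55 (permutation p = 0.0174, adjusted 0.139) and rho = -0.52 (adjusted 0.138). The sign was the same within the 12 mice of wild type alleles (r = -0.61) and the 6 ffNeg mice (r = -0.53), and r was -0.55 without the 2 farthest mice. Over all 24 mice r was -0.25 (adjusted 0.388). The relation did not pass after adjustment.

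Rgs14 (chr13:55369732-55384687, plus strand), a CA2-enriched member that also carries a GoLoco motif, had a lowest, median and highest value of 95.7, 123 and 139 CPM in ffPos mice. The lowest of all mice was the wtPos female with the choroid plexus signal, at 69.6 CPM, and the highest was a wtNeg mouse at 146 CPM. The medians of wtNeg, ffNeg and wtPos mice were 121, 122 and 121 CPM. Rgs14 differed by 0.01 from all other mice (interval -0.19 to 0.20, edgeR adjusted p = 0.980). With the 4 CA2 markers its level gave a weak relation that did not pass (r = 0.16, adjusted 0.741, rho = -0.08). Its sign turned without the wtPos female (r = -0.17), and r was -0.43 within the 6 ffNeg mice and 0.22 within the 12 mice of wild type alleles.

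Rgs20 (chr1:4909576-5070285, minus strand), an RZ protein that acts on Gz and Gi, stood at 13.9, 17.4 and 19.4 CPM as the lowest, median and highest values in ffPos mice. In ffNeg mice these were 11.7, 14.1 and 15.5 CPM, in wtNeg mice 12.5, 15.7 and 19.3 CPM, and in wtPos mice 13.3, 15.4 and 19.3 CPM. The ffPos mice were high beside the ffNeg mice, and the 2 genotypes overlapped. Rgs20 differed by 0.32 from ffNeg mice (SE 0.10, interval 0.10 to 0.54, edgeR adjusted p = 0.261) and by 0.20 from all other mice (edgeR adjusted p = 0.304). From wtPos mice it differed by 0.15 (SE 0.10, interval -0.06 to 0.36, edgeR adjusted p = 0.528). It differed by -0.18 between ffNeg and wtNeg mice (edgeR adjusted p = 0.566), and the interaction was 0.33 (edgeR adjusted p = 0.218).

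Counted together, none of the 9 members other than Rgs11 passed the test in ffPos mice against all others, where 0.00543% of 18433 genes did, which was Egr1 alone. Of the 9, 2 had an unadjusted p under 0.05, as did 15.1% of all genes, and DESeq2 called 0. Against ffNeg mice 0 of 9 passed where 0.0221% of genes did, and 2 had an unadjusted p under 0.05, as did 15.8% of all genes. Against wtPos mice 0 of 9 passed where 0.00558% did, with 0 at an unadjusted p under 0.05, beside 12.1% of all genes. DESeq2 called 0 members in each.

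With all 10 members tested, 0 passed between ffNeg and wtNeg mice and 0 between wtPos and wtNeg mice, by edgeR and by DESeq2. In both, 0% of all genes passed by edgeR (DESeq2 called 2 and 16 genes). No member had an unadjusted p under 0.05 in either, beside 9.42% and 6.13% of all genes. With the floxed alleles alone the members ran from -0.18 for Rgs20 to 0.14 for Rgs16 (edgeR adjusted p = 0.804), and with Nestin-Cre alone from -0.10 for Rgs14 (edgeR adjusted p = 0.876, and 0.01 without the wtPos female) to 0.21 for Rgs16 (edgeR adjusted p = 0.861). For the interaction of floxed alleles and Nestin-Cre 0 of 9 passed where 0.00533% of genes did, with 1 at an unadjusted p under 0.05, Rgs20, beside 18.8% of all genes. Here Rgs2 and Rgs4 stood near 0, at -0.03 (edgeR adjusted p = 0.945) and 0.04 (edgeR adjusted p = 0.922), and so did Gnb5 (edgeR adjusted p = 0.985). For the sex difference of ffPos against ffNeg mice 0 of 9 passed where 0% of genes did. There 0 had an unadjusted p under 0.05, beside 4.22% of all genes. DESeq2 called 0 in both.

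In direction, 8 of the 9 members were higher and 1 lower in ffPos mice against all others, with a median of 0.03 on the log2 scale beside -0.01 over all genes. Against ffNeg mice 7 were higher and 2 lower, with a median of 0.04. Adjusted p-values for the 9 ranged from 0.215 to 0.998 in the first comparison and from 0.261 to 0.995 in the second. The lowest of the 9 against all others was Rgs10, at -0.0038, beside the -0.40 of Rgs11. Intervals such as that of Rgs2, -0.15 to 0.22, leave room for smaller differences in either direction.

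Genes of the same pathway were set beside the members in ffPos against ffNeg mice, where none of them passed the test. Of 12 other RGS genes 11 were in the table and 9 were tested. Of these 7 were higher and 2 lower, with a median of 0.23, from Rgs13 at 0.39 (edgeR adjusted p = 0.675) to Rgs19 at -0.10 (edgeR adjusted p = 0.554), and 3 had an unadjusted p under 0.05, beside 15.8% of all genes. Against wtPos mice 6 were higher and 3 lower, with a median of 0.15, and Rgs13 was the lowest at -0.30 (edgeR adjusted p = 0.768). Rgs6 and Rgs9, the remaining R7 genes, differed by 0.23 (edgeR adjusted p = 0.512) and -0.09 (edgeR adjusted p = 0.780). All 4 R7 partners were higher, with a median of 0.21, from the orphan receptor Gpr158 at 0.31 (edgeR adjusted p = 0.262) to Gpr179 at 0.10 (edgeR adjusted p = 0.936). Against wtPos mice 3 were higher and 1 lower, with Gpr179 at -0.10 (edgeR adjusted p = 0.954).

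In ffPos against ffNeg mice, the lists of G protein subunits and of the channels they open each held genes on both sides of 0. Of 12 G alpha genes 10 were higher and 2 lower, with a median of 0.13, from Gna14 at 0.51 to Gna12 at -0.10. Of the 3 other G beta genes tested, Gnb4 stood at 0.21 and Gnb2 at -0.19. Of 10 G gamma genes 4 were higher and 6 lower, with a median of -0.09, from Gng10 at -0.61 to Gng4 at 0.38. Of the 4 genes for GIRK potassium channels, which G beta gamma opens, 3 were higher and 1 lower, from Kcnj6 at 0.51 to Kcnj9 at -0.05. The adjusted p-values of edgeR were 0.262 or more in the G alpha genes, 0.291 or more in the G gamma genes and 0.307 or more in the channels.

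**Figure D4:**
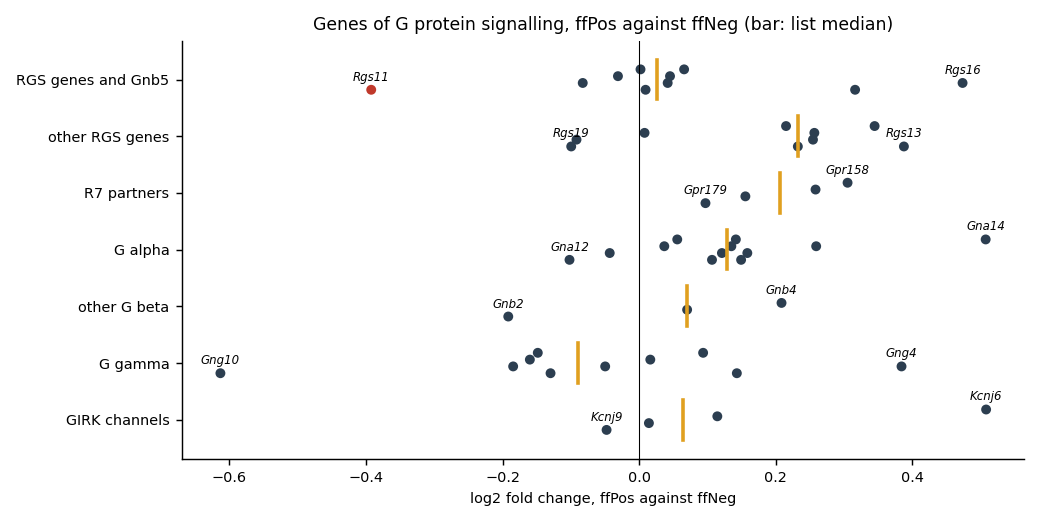
Log2 fold change of every tested gene of the pathway lists in ffPos against ffNeg mice, one point per gene, with a line for the list median. The other RGS genes have a median of 0.23 and the G gamma genes one of -0.09, and no gene passed the test, with Rgs11 (red) shown untested.

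Ordered by level per kilobase of exon over all 24 mice, Rgs4 was first at 45.7 CPM per kb ± 7.64 (SD, n = 24), followed by Gnb5 at 29.0, Rgs14 at 28.1, Rgs7 at 12.3, Rgs8 at 10.3, Rgs11 at 9.92, Rgs10 at 9.03, Rgs2 at 8.44, Rgs20 at 3.69 and Rgs16 at 1.89. Rgs4 against Gnb5, Rgs14 against Rgs7 and Rgs2 against Rgs20 had ranges that did not overlap between mice. Rgs20 was above Rgs16 within every one of the 24 mice, although their ranges overlapped. Of the remaining neighbours, whose ranges overlapped, Rgs7 was above Rgs8 in 23 mice, Rgs11 above Rgs10 in 17, Rgs10 above Rgs2 in 15, Gnb5 above Rgs14 in 14 and Rgs8 above Rgs11 in 13. The place of Rgs11 differed with genotype: over the 18 other mice it stood at 10.6 CPM per kb ± 1.29 (SD), above Rgs8 at 10.1, and in ffPos mice at 7.98 ± 1.15 (SD, n = 6), below Rgs10 at 8.98 and Rgs2 at 8.55. By this measure the level of Gnb5 was above that of both its R7 partners in the set. The exonic length merges all annotated exons of a gene and can exceed that of the transcripts present. Its part in the order was not tested.

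**Figure D5:**
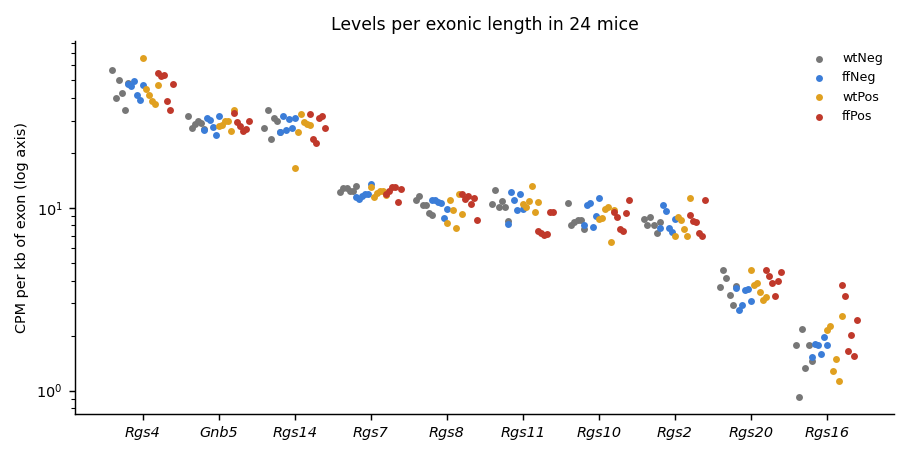
Level of each member per kilobase of exon in each of the 24 mice, in CPM per kb, on a log axis. Rgs4 leads at a mean of 45.7 CPM per kb and Rgs16 is lowest at 1.89, while Rgs8, Rgs11, Rgs10 and Rgs2 overlap.

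Among 19742 genes kept over the 24 mice, those whose log2 CPM most resembled that of Rgs11 were Gm48482 (Pearson's r = 0.90), Ddx55, an RNA helicase gene (0.88), Bmp1, a metalloprotease gene (0.86), 2010111I01Rik (0.85) and Slc2a4rg-ps (0.83). These r values share libraries and include the 6 ffPos mice. Over the 18 mice with intact Egr1 they were 0.81, 0.80, 0.73, 0.57 and 0.70 in the same order. Those 18 were among the 24 mice used to pick these genes, so their r values are not an independent check. Among the members, r with Rgs11 over the 24 mice ran from -0.41 for Rgs16 to 0.39 for Rgs10, and with Gnb5 it was 0.14. These values include the ffPos mice on which Rgs11 was selected. Over the 18 mice with intact Egr1, r ran from -0.24 for Rgs8 to 0.44 for Rgs10 and was -0.06 for Rgs16. Over the 18 mice Rgs11 and Gnb5 gave r = 0.24 (permutation p = 0.343, adjusted 0.549) with rho = 0.35 (adjusted 0.399), and Rgs7 and Gnb5 gave r = -0.07 (adjusted 0.801).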

How the data were processed

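Hippocampal RNA from 24 mice was sequenced as non-stranded libraries. The authors deposited raw counts per gene in 1 table of the whole series, from trimmed reads mapped to GRCm38 with STAR (versions 2.7.9 of STAR and 3.8.2 of Trim Galore are in the submitters' processing notes). All sample columns were matched to the labels by name. Gene positions were taken from the GENCODE annotation of GRCm38 and matched by gene ID, with a symbol for 36493 of 36605 genes.

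Counts were tested with edgeR 4.0.16 in R 4.3.3 (quasi-likelihood F test, TMM scaling, filterByExpr with a minimum count of 10), fitted on the whole table with p-values adjusted by Benjamini-Hochberg over all genes tested. A gene passed at an adjusted p of at most 0.05 and a fold change of at least 1.2, as in the study's own rule, and with no fold minimum for the interaction and the sex difference. The comparison of ffPos with all other mice had no covariate, and pairwise comparisons had sex as one. DESeq2 1.42.0, other size factors, no filter on low counts, each sex alone, sex in or out, a replicate block and mice left out in turn were the alternatives. Leaving out the wtPos female with the most choroid plexus signal was added after seeing the data. Correlations used log2 CPM with a prior count of 2 and 100000 permutations (scipy 1.17.1).

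All 10 members were named, Egr1 as a check, and from each pathway list the genes with the highest and lowest difference in ffPos against ffNeg mice. Rgs6 and Rgs9 were added as the rest of the R7 subfamily, after their values were seen. The members and lists were chosen with earlier results of these data known. The scripts were tested on simulated data. Total counts limit the precision of low genes such as Rgs16. No pair of mice in a group had counts within sampling noise (lowest chi-square per gene 5.04, where 1 is sampling noise). 1 marker gene is not reported here.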

Additional observations from a re-analysis of the deposited data

Results flagged for a closer look

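Of 40 sets of 6 mice (10 members in 4 genotypes), 4 held a mouse whose level stood apart from the rest of its genotype, and chance gives about 1 in 20. Rgs4 was highest in the wtPos female replicate 1, at 205.0 CPM. That female also had the highest choroid plexus and activity marker sums, and their part in the value was not tested. Rgs7 in ffNeg mice was highest in male replicate 3, at 81.5 CPM. Rgs10 in wtNeg mice was highest in female replicate 1, at 18.1 CPM. Rgs11 in wtPos mice was highest in male replicate 1, at 55.0 CPM.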

How the results depend on the processing

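No member was called in the comparisons under the alternatives, with 1 exception in 124 counts. With no filter on low counts 1 member, Rgs4, was called between females and males (difference 0.28, edgeR adjusted p = 0.000295). Rgs11 was not counted, here or with a mouse left out, in comparisons of ffPos with other mice, the interaction and the sex difference. With each mouse of a pairwise comparison or of the sex difference left out in turn, or each ffPos mouse for the comparison with all others and the interaction, the number of members called ran from 0 to 0. Of the other 18 mice there, and between the sexes, only the wtPos female was left out. The relation of Rgs4 with the activity list passed over all 24 mice (r = 0.607). On residuals from group means r was 0.736 for Rgs4 and -0.602 for Rgs8 with that list, and -0.667 for Rgs10 with the microglial list. These passed by permutation on the residuals. That permutation took no account of the group means removed, so its p-values are too low and nothing is concluded from these passes. The sign turned for Rgs20 between ffNeg and wtNeg mice in males alone (0.034 beside -0.18) and for Rgs14 with the activity list without the wtPos female (r = 0.066 beside -0.320), as it did for Rgs14 with the CA2 list (r = -0.17 beside 0.16), and the cause was not tested. Of 1240 member differences under an alternative, 136 changed sign, 1 of them larger than its standard error.

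Same-numbered mice did not deviate together (mean correlation -0.00891 over 36 pairs, 5 of them over 0.1), so the numbers do not pair the mice. With the replicate block 0 members were called in each comparison, with Rgs11 left uncounted as above. The Rgs11 difference of ffPos from all other mice was -0.40 with the block, as a description. Over all genes the block called 3 against 1 for ffPos against all others, 9 against 4 against ffNeg, 11 against 14 between the sexes and 1 against 0 for the sex difference.

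Counts over all genes moved with the setting. DESeq2 called 34, 61, 30, 2, 16, 36, 16 and 3 genes, and edgeR with no filter 7, 808, 529, 163, 156, 1173, 79 and 59, in the order ffPos against all others, ffNeg and wtPos, ffNeg against wtNeg, wtPos against wtNeg, interaction, sexes and sex difference. With a mouse left out the highest counts were 215 (without ffPos male 3), 327 (without ffNeg male 1), 795 and 201 (both without wtPos male 2).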
